A study of Rattus norvegicus with 24 samples.

Results

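The 10 genes described here are encoded in the mitochondrial genome and specify subunits of the respiratory chain. They were taken by Ensembl gene ID from a fixed list of 10 names: mt-Nd1 (ENSRNOG00000030644), mt-Nd2 (ENSRNOG00000031033), mt-Co1 (ENSRNOG00000034234), mt-Co2 (ENSRNOG00000030371), mt-Atp6 (ENSRNOG00000031979), mt-Co3 (ENSRNOG00000030700), mt-Nd4 (ENSRNOG00000029707), mt-Nd5 (ENSRNOG00000029971), mt-Nd6 (ENSRNOG00000029042) and mt-Cytb (ENSRNOG00000031766). All 10 were found among the 32883 gene IDs of the tables, and all 10 passed the filter on low counts.

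Messenger RNA of the medial prefrontal cortex, taken from both hemispheres, was sequenced in Sprague Dawley rats at postnatal day 45. The 24 libraries fall into 4 labelled groups of 6: males born after induction with oxytocin, males born after saline, and the same treatments in females. Oxytocin is a peptide hormone that drives uterine contraction, and saline served as its control. No transgene or other agent is named for any group. In 24 of 24 libraries the name of the deposited table contradicts the title on sex and on treatment alike. Groups therefore follow the sample titles and are called labelled throughout. If the table names were right, each treatment difference below would belong to the other sex with its sign turned, "wider in saline" would read "wider in oxytocin", differences between the sexes would turn their sign, and the interaction would keep its own. The labels name no litter, so the p-values measure the spread between these libraries, each taken as independent. Had animals of a group shared a litter, the p-values would not be exact, and the spread of that group could differ. Neither could be checked.

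Mitochondria keep a small circular genome that is transcribed from both strands into long precursors, which are then cut into single messenger RNAs. Its protein-coding genes specify core subunits of complexes I, III, IV and V of oxidative phosphorylation, while all other subunits come from the nucleus. Brain cortex depends heavily on oxidative phosphorylation, and these transcripts are known to be among the most abundant in neural tissue. mt-Nd1, mt-Nd2, mt-Nd4, mt-Nd5 and mt-Nd6 specify subunits of complex I, the NADH dehydrogenase that takes electrons from NADH. mt-Cytb specifies cytochrome b of complex III, which passes electrons on to cytochrome c. mt-Co1, mt-Co2 and mt-Co3 specify the core subunits of complex IV, cytochrome c oxidase, where oxygen is reduced. mt-Atp6 specifies the subunit of complex V, the ATP synthase, that forms part of its proton channel.

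The deposited lengths were checked first, since the tables pair no ID with a name. They were 1830 bases for mt-Nd5, 1545 for mt-Co1, 1378 for mt-Nd4, 1143 for mt-Cytb, 1039 for mt-Nd2, 955 for mt-Nd1, 784 for mt-Co3, 684 for mt-Co2, 681 for mt-Atp6 and 519 for mt-Nd6. The same length stood in all 24 tables, and this order from mt-Nd5 to mt-Nd6 is the order of these genes' sizes known from mammalian mitochondrial genomes. For mt-Co1, mt-Co2, mt-Atp6, mt-Nd5, mt-Nd6 and mt-Cytb the length was a whole number of codons. mt-Nd1, mt-Nd2, mt-Co3 and mt-Nd4 each had 1 base left over. Several mitochondrial genes are known to end in an incomplete stop codon that the poly(A) tail completes. The lengths thus gave no reason to doubt the names. The reference table used here holds 0 genes of the mitochondrial chromosome, so no coordinates, promoter or protein sequence of these genes is given.

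The 10 genes together took a large and variable part of every library. In labelled saline males their summed share of the estimated reads ran from 6.85% to 10.9% with a median of 8.83%. In labelled oxytocin males it ran from 7.94% to 9.08% with a median of 8.83%. In labelled saline females it ran from 6.80% to 10.1% with a median of 8.62%. In labelled oxytocin females it ran from 8.37% to 9.65% with a median of 8.86%. The 4 groups overlapped and their centres lay close together, while the saline groups reached both further up and further down. Their means were 8.74% ± 1.37 and 8.70% ± 0.438 in labelled males (saline and oxytocin, SD, n = 6 each) and 8.55% ± 1.24 and 8.90% ± 0.506 in labelled females (SD, n = 6 each). Library totals ran from 15.9 to 24.3 M estimated reads, and were lower in labelled oxytocin females (17.4 ± 0.888 M, SD, n = 6) than in labelled saline females (20.2 ± 2.18 M, SD, n = 6). No member had fewer than 13445 reads in any library, so counting error is small beside the spread between libraries.

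**Figure D1:**
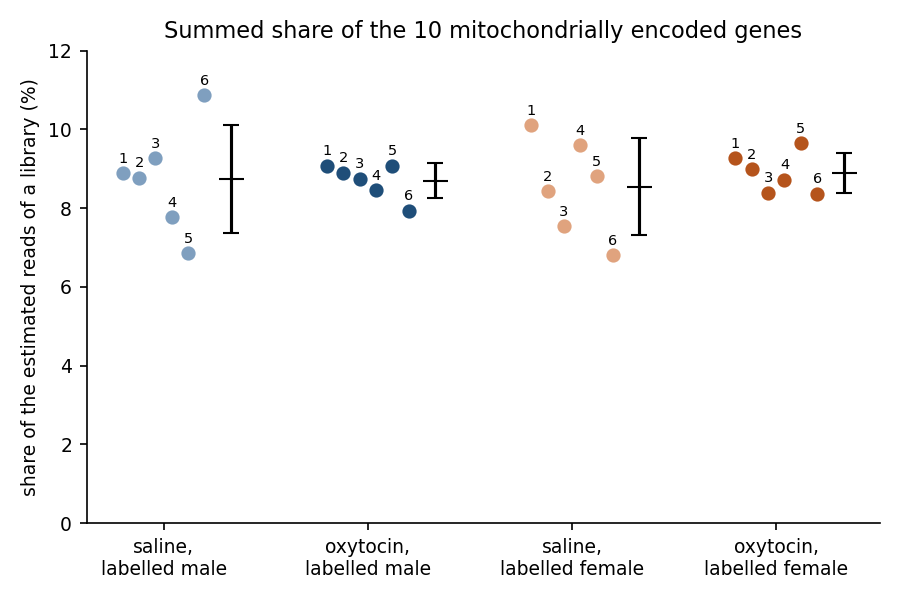
Summed share of the 10 mitochondrially encoded genes in the estimated reads of each library (y axis, percent), with the library number above each point and the group mean ± SD (n = 6) to its right. The means lie between 8.55% and 8.90%, and the points spread further in both labelled saline groups, up to 10.9% and down to 6.80%.

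mt-Co1, the catalytic subunit of cytochrome c oxidase, had more reads than any other gene of the table in 24 of 24 libraries and held 2.20% ± 0.202 of the reads (SD, n = 24). mt-Atp6 held 1.08% ± 0.111, mt-Cytb 0.969% ± 0.121, mt-Co3 0.882% ± 0.101 and mt-Nd1 0.831% ± 0.105 (SD, n = 24 each). mt-Nd2, mt-Nd4, mt-Co2 and mt-Nd5 lay between 0.755% and 0.471% on average. mt-Nd6 was the lowest at 0.0996% ± 0.0144 (SD, n = 24). By reads, 8 or 9 of the 10 members stood among the 10 genes with most reads in each library. mt-Nd5 ranked 9 to 12, and mt-Nd6 ranked 67 to 178.

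Compared per length, on the deposited TPM scale, the order of the members changed. mt-Atp6 was the highest gene of the table in every library, at 37075 ± 2799 TPM (SD, n = 24), and mt-Co1 was second at 27113 ± 1750 TPM. mt-Atp6 exceeded mt-Co1 in 24 of 24 libraries, by a ratio between 1.28 and 1.4996. The other subunits of cytochrome c oxidase followed, mt-Co2 at 24869 ± 1678 TPM and mt-Co3 at 24185 ± 2182 TPM (SD, n = 24 each). mt-Co2 was above mt-Co3 in 14 of 24 libraries, so these neighbours did not differ beyond their spread.

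Below them stood mt-Nd1 at 17344 ± 1900 TPM, mt-Cytb at 16378 ± 1786 TPM and mt-Nd2 at 16069 ± 2150 TPM (SD, n = 24 each). mt-Nd1 was above mt-Cytb in 21 of 24 libraries, and mt-Cytb above mt-Nd2 in 13 of 24, so the order of mt-Cytb and mt-Nd2 was not settled. mt-Nd4 came next at 12107 ± 1113 TPM. The widest step between neighbours was that from mt-Nd4 to mt-Nd5 at 6000 ± 588 TPM (SD, n = 24 each), a ratio between 1.88 and 2.19, and the only one at which the ranges over all libraries did not overlap. mt-Nd6 closed the order at 5499 ± 654 TPM and was below mt-Nd5 in 22 of 24 libraries. mt-Atp6 thus stood 6.13 to 7.93 times above mt-Nd6 within a library. Together the members took 15.4% to 22.1% of the TPM of a library, more than their share of reads because they are short.

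mt-Nd6 differs from the other members in its strand: it is known to be transcribed from the light strand, the others from the heavy strand. The strand setting of the counting is not given in the sources used here, so sense reads of mt-Nd6 cannot be told apart from antisense reads over it. The same holds for the other members. The libraries were selected with oligo-dT, and tail lengths of the members were not measured here. The TPM order also rests on the effective lengths by which the reads were divided. These were between 0.479 and 0.586 of the deposited length for mt-Nd6 and between 0.821 and 0.868 for mt-Co1. With reads divided by the deposited length in their place, 8 of the 10 members kept their place, mt-Co2 and mt-Co3 changed places, and mt-Nd5 exceeded mt-Nd6 in 24 of 24 libraries. Of the 240 values of the members, 237 were whole reads.

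**Figure D2:**
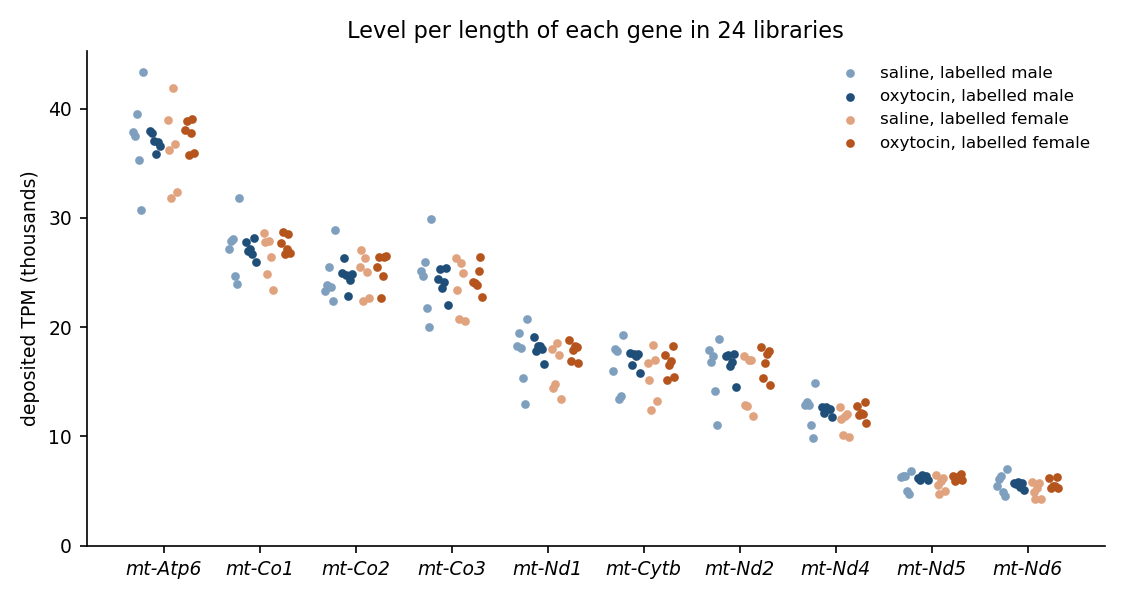
Deposited TPM (y axis, in kilo-TPM) of each of the 10 genes in the 24 libraries, ordered by mean level and coloured by labelled group, 1 point per library. mt-Atp6 lies above mt-Co1 in every library, and mt-Nd5 and mt-Nd6 lie below all others.

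The comparison of oxytocin with saline asks what induction of birth leaves behind in the offspring's cortex, and for these genes the group means gave no call. None of the 10 members was called between oxytocin and saline in labelled males (edgeR quasi-likelihood test, Benjamini-Hochberg adjusted over 14930 genes, called at an adjusted p of at most 0.05, 0 of 10), against 0.161% of all tested genes. In labelled females 0 of 10 were called, against 0.0067% of all genes. Averaged over the labelled sexes 0 of 10 were called, against 0.362%. At an unadjusted p under 0.05 the count was 0 of 10 in each, against 11.2% of all genes in labelled males, 12.4% in labelled females and 16% on average. DESeq2 called 0 of 10 in each, against 1.06%, 0.274% and 2.52% of the genes to which it gave an adjusted p.

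Levels below are reads per M (CPM) scaled between libraries by TMM, and differences are log2 fold changes of oxytocin over saline. Among the complex I subunits, mt-Nd2 ran from 4858 to 9677 CPM with a median of 7652 in labelled saline males, and from 6149 to 8447 CPM with a median of 7998 in labelled oxytocin males. In labelled females mt-Nd2 ran from 5066 to 8965 CPM with a median of 7023 after saline, and from 6926 to 8746 CPM with a median of 7937 after oxytocin. The saline range enclosed the oxytocin range in both labelled sexes. Its log2 fold change was 0.06 in labelled males (SE 0.14, edgeR adjusted p = 0.928) and 0.16 in labelled females (SE 0.14, edgeR adjusted p = 0.694), the latter being the highest of any member in that comparison.

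mt-Nd5, the long complex I subunit with the lowest level per length next to mt-Nd6, had the highest averaged difference per standard error. It ran from 3372 to 5893 CPM (median 4625) in labelled saline males and from 4177 to 5115 CPM (median 4892) in labelled oxytocin males. In labelled females it ran from 3562 to 5676 CPM (median 4669) after saline and from 4725 to 5411 CPM (median 4904) after oxytocin. Here too the oxytocin libraries lay within the saline range. The averaged log2 fold change was 0.10 (SE 0.08, edgeR adjusted p = 0.552), the lowest adjusted p of the members in the 3 treatment comparisons.

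mt-Nd1 had log2 fold changes of 0.01 in labelled males (SE 0.11) and 0.11 in labelled females (SE 0.11). mt-Nd4 had −0.0020 (SE 0.11) and 0.10 (SE 0.11). mt-Nd6 had −0.03 (SE 0.13) and 0.15 (SE 0.13). The intervals of 2 standard errors either side included 0 for each of them.

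For complex III, mt-Cytb ran from 7460 to 12308 CPM (median 10053) in labelled saline males and from 9391 to 10424 CPM (median 10067) in labelled oxytocin males. In labelled females it ran from 7190 to 11175 CPM (median 9507) after saline and from 8874 to 11278 CPM (median 9495) after oxytocin. The medians nearly coincided within each labelled sex. Its log2 fold changes were 0.04 and 0.08 (SE 0.11 each).

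For complex IV, mt-Co1 ran from 17948 to 28044 CPM (median 22137) in labelled saline males and from 20769 to 23027 CPM (median 21728) in labelled oxytocin males. In labelled females it ran from 17757 to 25529 CPM (median 22098) after saline and from 20822 to 24160 CPM (median 22005) after oxytocin. The oxytocin libraries again stood inside the saline range. Its log2 fold change was −0.03 in labelled males (SE 0.08, edgeR adjusted p = 0.942) and 0.04 in labelled females (SE 0.08, edgeR adjusted p = 0.904). With 2 standard errors either side, the interval in labelled males ran from −0.20 to 0.14 on the log2 scale. The other cytochrome c oxidase subunits had 0.01 and 0.02 for mt-Co2 (SE 0.09 each) and −0.04 and 0.02 for mt-Co3 (SE 0.10 each).

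For complex V, mt-Atp6 ran from 8348 to 13624 CPM (median 10587) in labelled saline males and from 9945 to 11237 CPM (median 10811) in labelled oxytocin males. In labelled females it ran from 8653 to 12907 CPM (median 10649) after saline and from 10138 to 11872 CPM (median 11025) after oxytocin. Its log2 fold changes were −0.02 and 0.03 (SE 0.09 each).

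As a set, 5 of the 10 members had a log2 fold change above 0 in labelled males, with a median of 0.00, beside 49.6% of all tested genes. In labelled females 10 of 10 were above 0, with a median of 0.09, beside 50.5% of all genes with a median of 0.00. The members rise and fall together across libraries, so these 10 signs are not 10 separate observations, and 4 of the 10 changed sign when 1 library was left out. Averaged over the labelled sexes 9 of 10 were above 0, with a median of 0.05, beside 50% of all genes. The median size of the difference was 0.03 in labelled males and 0.09 in labelled females for the members, and 0.07 and 0.08 for all tested genes. Oxytocin and saline libraries overlapped for 10 of 10 members in each labelled sex, while they did not overlap for 1.19% of all genes for labelled males and 0.73% for labelled females. In bulk tissue, fewer mitochondria-rich cells and less of these RNAs per cell cannot be told apart.

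**Figure D3:**
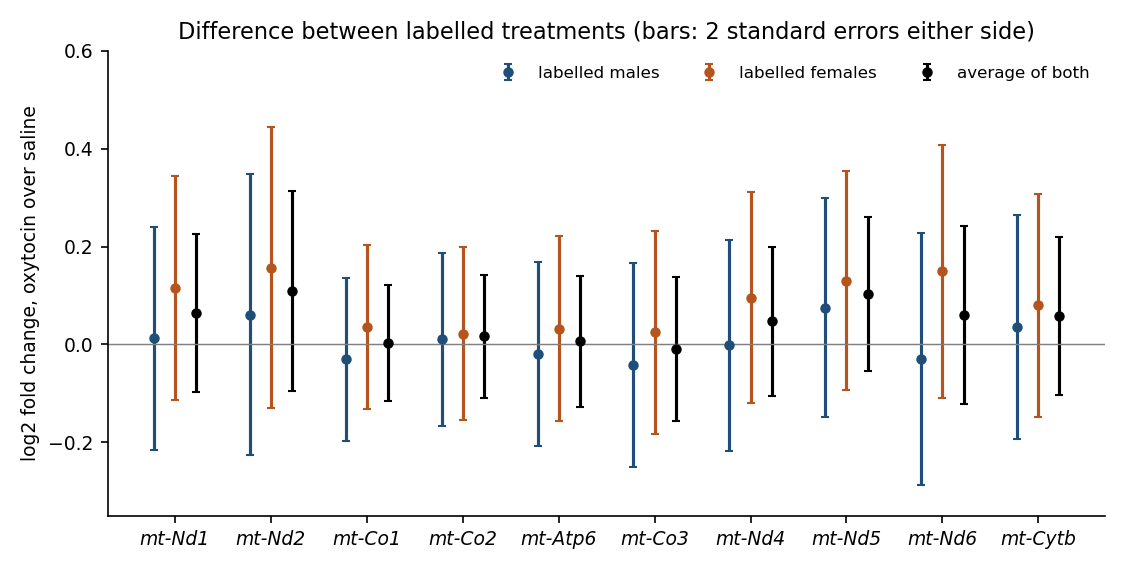
Log2 fold change of oxytocin over saline (y axis) for each gene in both labelled sexes and averaged over them; bars reach 2 standard errors of the edgeR fit either side. Every bar crosses 0, and the points lie between −0.04 and 0.16.

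Whether the labelled sexes responded differently was tested with the interaction, which called 0 of 10 members and 0% of all 14930 genes in edgeR. At an unadjusted p under 0.05 it gave 0 members and 1089 genes (7.29%), and DESeq2 called 0 members and 2 genes (0.00909%). The interaction was below 0 for 10 of 10 members, while it was above 0 for 51% of all genes. The members rise and fall together, so these signs are not separate observations. For 7 of the 10 the sign changed when 1 library was left out. The values lay between −0.18 (mt-Nd6, SE 0.18) and −0.01 (mt-Co2, SE 0.12). Between labelled males and labelled females, averaged over treatment, 0 of 10 members were called against 0.228% of all genes, with 0 members at an unadjusted p under 0.05 (9.99% of all genes) and 0 called by DESeq2 (0.637% of its genes). The difference was above 0 for 6 of 10 members and for 51.2% of all genes. mt-Co2 had the value farthest from 0, a log2 difference of −0.08 (male over female, SE 0.06, edgeR adjusted p = 0.706), and mt-Nd1 the highest at 0.06 (SE 0.08). The labelled sexes overlapped in all 10 members, while they did not overlap for 0.0871% of all genes.

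The labelled treatments also stood apart in how far their libraries were spread, a pattern noticed in the values and described here without a call for any member. In labelled males the SD of log2 CPM of mt-Nd1 was 0.32 between saline libraries and 0.05 between oxytocin libraries (n = 6 each), a ratio of 5.88, the highest of the members. In labelled females it was 0.25 and 0.09, a ratio of 2.80. The lowest ratio in labelled males was that of mt-Nd6, 1.64 (0.29 and 0.18), and the lowest in labelled females that of mt-Co2, 1.65 (0.19 and 0.11). For 10 of 10 members the SD was wider in saline in both labelled sexes, against 30.2% of all tested genes. It was at least 2 times wider in both for 8 of 10 members, all but mt-Co2 and mt-Nd6, against 1.39% of all tested genes. The median ratio over the members was 2.69 in labelled males and 2.28 in labelled females, and over all tested genes 0.98 and 1.17. Over the 1493 tested genes with the highest mean level, to which the members belong, the medians were 0.96 and 1.63. Of those genes 81.7% were wider in saline in labelled females and 46.6% in labelled males, 38.0% in both, and 2.08% at least 2 times wider in both. Since the members vary together, these counts are not 10 separate observations.

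Gene by gene, the difference in spread did not pass the test. It was tested with limma on each library's absolute deviation from its group mean, adjusted over all 14930 genes, a comparison chosen after the values had been seen. No member was called in labelled males (0 of 10, lowest adjusted p = 0.381, against 0.0067% of all genes) or in labelled females (0 of 10, lowest adjusted p = 0.314, against 0.161%). Averaged over the labelled sexes 0 of 10 were called (lowest adjusted p = 0.156, that of mt-Nd1, against 0% of all genes). At an unadjusted p under 0.05 there were 6 of 10 members in labelled males, all with less spread in oxytocin, against 6.16% of all genes (2.89% in that direction). In labelled females there were 3 of 10, in the same direction, against 12.2% (9.18% in that direction). Averaged over both there were 8 of 10 members, again with less spread in oxytocin, against 9.25% of all genes (6.25% in that direction). These counts again are not separate observations, because the members vary together. On simulated data this test called more unchanged genes than its threshold allows, so its p-values are not exact. Whether the spread differed more in one labelled sex gave 0 of 10 members called, against 0.0335% of all genes. At an unadjusted p under 0.05 this gave 0 members, against 8.89% of all genes (2.73% with the more negative value in males).

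**Figure D4:**
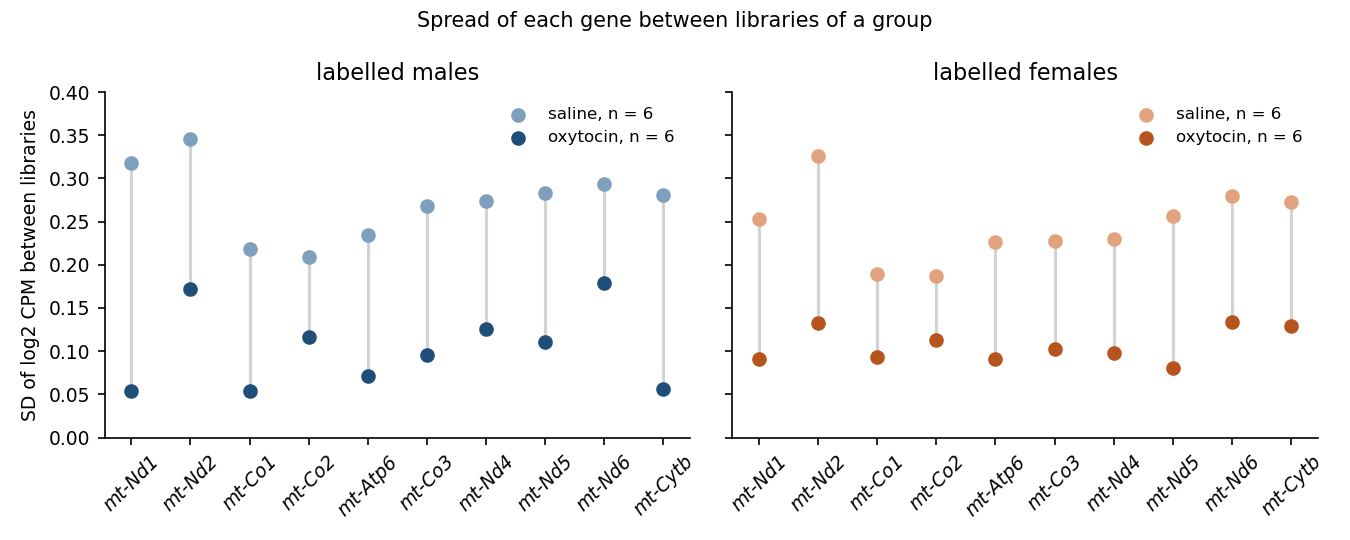
SD of log2 CPM between the 6 libraries of a group (y axis) for each gene, with saline and oxytocin joined by a line, in labelled males (left) and labelled females (right). The saline point is above the oxytocin point in all 20 pairs, by 1.64 to 5.88 times in males and 1.65 to 3.20 times in females.

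The members largely moved together in the libraries at the ends of the groups. Among labelled saline males, library 6 was the highest for 10 of 10 members and library 5 the lowest for 10 of 10. Among labelled saline females, library 6 was the lowest for 9 members, and library 1 the highest for 7 and library 4 for 3. Oxytocin libraries did so too: male 6 was the lowest for 9 members, female 5 the highest for 9 and female 6 the lowest for 6. The highest place in labelled oxytocin males was less uniform, with library 1 the highest for 5 members. Saline male 6, with the highest share of all libraries, was also the shallowest library of the series at 15.9 M reads. The other extreme saline libraries were of middling depth: 19.8 M reads in saline male 5, 19.6 M in saline female 1 and 19.2 M in saline female 6. The part of depth in the spread was not tested.

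The spread was compared again with extreme libraries left out in 2 ways, both chosen after seeing the data. Without the highest and the lowest library of each saline group, by summed share, the median SD ratio fell to 1.28 in labelled males and 1.73 in labelled females. The SD was then wider in saline in both labelled sexes for 6 of 10 members, against 20.8% of all genes, and at least 2 times wider in both for 2 of 10, against 0.938%. Averaged over the labelled sexes, 2 of 10 members were then at an unadjusted p under 0.05 with less spread in oxytocin, against 10% of all genes (5.39% in that direction), and 0 were called, against 0.0804%. This trims 1 side of the comparison by the value measured, which narrows it by construction. With the highest and the lowest library by summed share left out of all 4 groups alike, the ratios were 2.11 and 2.41. The SD was then wider in saline in both for 9 of 10 members, against 25.2% of all genes, and at least 2 times wider in both for 5, against 2.5%. Averaged, 5 of 10 members were at an unadjusted p under 0.05 with less spread in oxytocin, against 12% of all genes (6.31% in that direction), and 0 were called, against 0.141%. In both ways the libraries were picked by the members' own summed share, not by the values of each other gene. The shares of all genes are thus not a like comparison, and the p-values after trimming are not exact.

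Leaving out libraries singly, the median SD ratio in labelled males was 2.13 without saline male 6, 2.14 without saline male 5 and 4.55 without oxytocin male 6. Without saline female 6 the ratio in labelled females was 1.88, and the number of members at least 2 times wider in both labelled sexes fell from 8 to 3. Without oxytocin female 4 that number was 5. The middle 4 libraries of labelled males spanned 1.498 percentage points of summed share in saline and 0.612 in oxytocin, and those of labelled females 2.06 and 0.881 points.

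**Figure D5:**
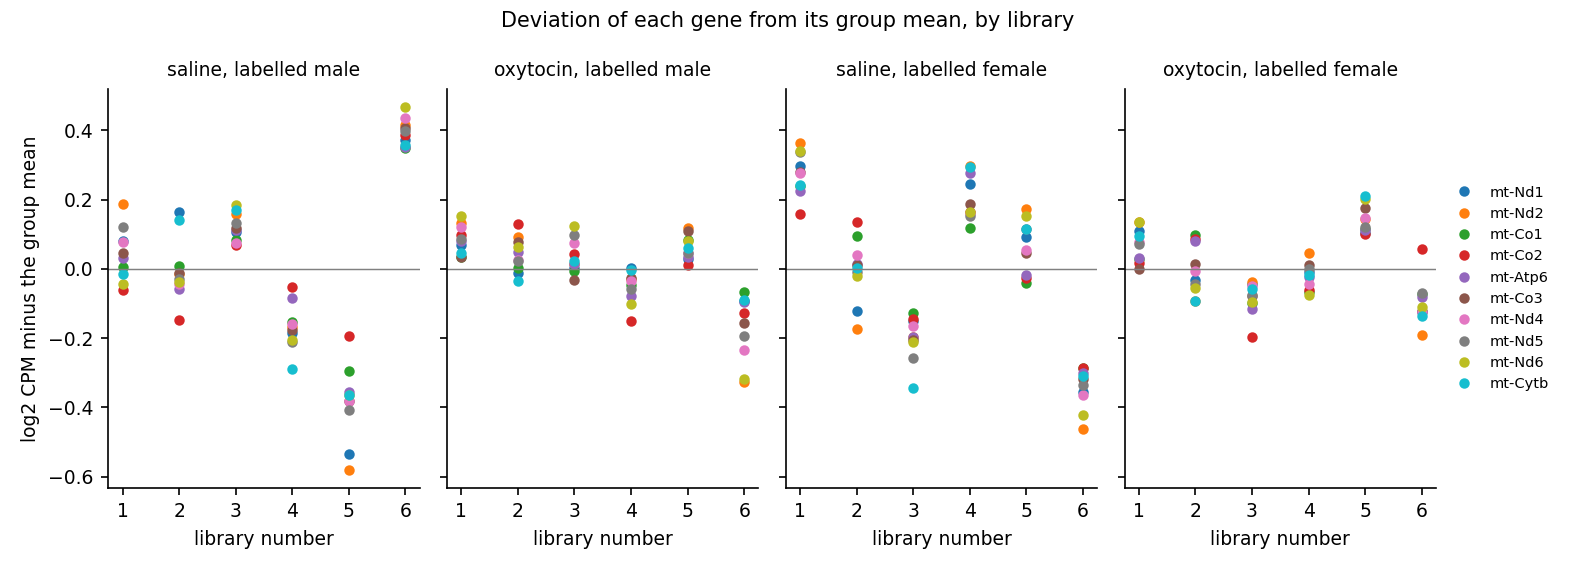
Log2 CPM of each gene minus the mean of its group (y axis) by library number (x axis) in the 4 labelled groups, 1 colour per gene. The 10 genes of a library lie close together, and saline libraries 5 and 6 of the males and 1, 3, 4 and 6 of the females lie farthest from 0.

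Within a group the members deviated in step. Over all 45 pairs of members, Pearson's r of the deviations from the group means was between 0.67 and 0.97 with a median of 0.92 (24 libraries, which share depth and scaling across genes). Spearman's rho was between 0.53 and 0.96. The closest pair was mt-Nd4 and mt-Nd5 (r = 0.97, rho = 0.96, n = 24; permutation test within groups, two-sided p = 1e-05 for each, the smallest 100000 permutations can give, adjusted p = 1.4e-05 and 1.8e-05 over 45 pairs). Without the 2 libraries farthest from the median of mt-Nd4 their r was 0.96. mt-Nd6 followed its heavy-strand neighbour mt-Nd5 nearly as closely (r = 0.96, rho = 0.94, n = 24, permutation p = 1e-05 for each). Their r was 0.95 without the 2 libraries farthest from the median of mt-Nd5. The member closest to mt-Nd6 was mt-Nd4 (r = 0.97). Since the strand of the reads is not known, these values need not compare transcripts of both strands.

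The least close pair was mt-Nd1 and mt-Co2 (r = 0.67, rho = 0.53, n = 24; permutation p = 0.00645 and 0.0240, unchanged by the adjustment over 45 pairs), with r = 0.54 without the 2 libraries farthest from the median of mt-Nd1. mt-Co2 was in each of the 3 least close pairs, the others being with mt-Cytb (r = 0.70) and mt-Nd2 (r = 0.71). In the 12 saline libraries the median r over the pairs was 0.94, and in the 12 oxytocin libraries, which were less spread, 0.78. Whether the narrower spread accounts for the lower r was not tested.

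Between members, the mixture within a library was steadier than the total. mt-Co1 made up 25.3% ± 0.890 of the members' reads (SD, n = 24), mt-Atp6 12.4% ± 0.366 and mt-Co3 10.1% ± 0.248. Relative to their mean, mt-Nd2 and mt-Co2 varied most within the mixture, at 8.62% ± 0.651 and 8.00% ± 0.554 (SD, n = 24 each). The summed share of all reads had a coefficient of variation of 10.6% over the 24 libraries, while that of the mixture ran from 2.46% for mt-Co3 to 7.55% for mt-Nd2.

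The residual SD of log2 CPM about the group means was 0.15 for mt-Co1, the steadiest member, and 0.26 for mt-Nd2, the most variable. The median was 0.14 over all 14930 tested genes and 0.08 over the 1493 with the highest mean level. Among all tested genes the members' SD stood between the 53.6 percentile (mt-Co1) and the 75.2 percentile (mt-Nd2). Among those 1493 genes, most of which lie far below the members in level, they stood between the 92.2 percentile (mt-Co1) and the 97.6 percentile (mt-Nd2). This SD pools the 4 groups, though for each member the SD was wider in saline in both labelled sexes. For mt-Co1 it was 0.22 after saline and 0.05 after oxytocin in labelled males, and 0.19 and 0.09 in labelled females.

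Among tested genes outside the list, those whose deviations followed the mean of the members most closely were ENSRNOG00000031053 (r = 0.91, mean level 696 CPM) and ENSRNOG00000043866 (r = 0.86, 4474 CPM) over the 24 libraries. Those most opposed were ENSRNOG00000037505 (r = −0.83, 108 CPM) and ENSRNOG00000045554 (r = −0.77, 130 CPM). The tables pair these IDs with no name. The list does not hold every mitochondrial gene, mt-Atp8 and mt-Nd4l for example. Whether any of these IDs is itself mitochondrially encoded was therefore not checked. Only 3 of the tested genes outside the list had an r beyond 0.8 in either direction, and the median r over all of them was 0.00. Nuclear-encoded respiratory chain genes and cell type markers were listed by symbol, but 0 of the 47357 rows of the reference table carry an Ensembl ID, so no list could be matched and the tissue label was not checked against markers.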

How the data were processed

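The members and lists were chosen with earlier results of these data known. The submitters' processing notes name bcl2fastq, DRAGEN and the assembly Rnor_6.0; tool versions, annotation and strand setting: not given in the sources used here. Per the file headers, the tables deposited by the authors hold estimated counts of reads (NumReads) and TPM beside 2 kinds of gene length; 7.42% to 8.38% of the genes of a library had an estimated count that was not whole. The TPM values deposited by the authors are scaled to 1 fixed sum per library and keep no depth, so they were used for levels per length only and tested nowhere but in 1 alternative of the spread. Reads of nuclear copies of mitochondrial sequence could be split or lost in the authors' counting, as could reads where mt-Atp6 and mt-Nd4 overlap their neighbours mt-Atp8 and mt-Nd4l.

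Estimated counts were rounded, filtered with filterByExpr (minimum count 10, minimum total 15), scaled by TMM (factors 0.971 to 1.03) and fitted with edgeR 4.0.16 in R 4.3.3, with 1 mean per group over all 24 libraries and robust quasi-likelihood. SE is the log2 fold change divided by the root of F. Deviations and correlations used log2 CPM with a prior count of 2. Spread was tested with limma 3.58.1 on absolute deviations, with group means as centre, a test chosen after seeing the data. On simulated data, with planted changes in level larger than any difference of a member, the edgeR fit recovered the changed genes. Smaller changes were not simulated. The spread test from group means called more unchanged genes than its threshold allows, and that from medians recovered none of the changed genes, so neither p is exact; both were run on the real data and the first was kept as the main one after seeing this. The alternatives were RLE factors, scaling without the members, no filter, a minimum count of 50, effective length offsets, DESeq2 1.42.0, a replicate block and leaving out each library; for the spread also medians, log2(TPM + 0.1) and leaving out the highest and lowest library of the saline groups or of all 4 groups, all added after seeing the data. A change of sign was counted as a reversal whatever its size. Named genes were the 10 members and the 2 tested genes most like and the 2 most opposed to their mean.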

Additional observations from a re-analysis of the deposited data

How the results depend on the processing

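No member was called in any of the 5 comparisons under any of the 31 alternatives, and the lowest adjusted p of a member in any of them was 0.317 (edgeR and DESeq2). Of 1550 fold changes recomputed, 115 reversed their sign, each moving by less than 1 standard error, and 19 of the 50 fold changes never did. The log2 fold change in labelled males ran, with 1 library left out, from −0.078 to 0.092 for mt-Nd1, −0.036 to 0.15 for mt-Nd2, −0.085 to 0.046 for mt-Co1, −0.028 to 0.10 for mt-Co2, −0.084 to 0.057 for mt-Atp6, −0.11 to 0.049 for mt-Co3, −0.071 to 0.10 for mt-Nd4, −0.10 to 0.077 for mt-Nd6 and −0.031 to 0.11 for mt-Cytb. The log2 fold change in labelled females ran, with 1 library left out, from −0.017 to 0.085 for mt-Co1, −0.030 to 0.059 for mt-Co2, −0.023 to 0.091 for mt-Atp6 and −0.034 to 0.084 for mt-Co3. The log2 fold change averaged ran, with 1 library left out, from −0.025 to 0.041 for mt-Co1, −0.010 to 0.060 for mt-Co2, −0.026 to 0.045 for mt-Atp6 and −0.043 to 0.036 for mt-Co3. The log2 fold change for the interaction ran, with 1 library left out, from −0.12 to 0.012 for mt-Co1, −0.050 to 0.076 for mt-Co2, −0.12 to 0.026 for mt-Atp6, −0.14 to 0.025 for mt-Co3, −0.17 to 0.0019 for mt-Nd4, −0.13 to 0.033 for mt-Nd5 and −0.11 to 0.034 for mt-Cytb. The log2 fold change between labelled sexes ran, with 1 library left out, from −0.035 to 0.061 for mt-Nd2, −0.046 to 0.022 for mt-Co1, −0.065 to 0.0090 for mt-Atp6, −0.043 to 0.040 for mt-Co3, −0.036 to 0.051 for mt-Nd4, −0.077 to 0.0060 for mt-Nd5 and −0.045 to 0.048 for mt-Nd6. Beside these, mt-Co2 in labelled males was −0.0037 with effective length offsets, mt-Co1 averaged was −0.00015 with a minimum count of 50, and mt-Nd5 between labelled sexes was 0.027 with effective length offsets. Counts over all genes moved more. With DESeq2 they were 157 in labelled males against 24, 45 in labelled females against 1, 350 on average against 54, 2 for the interaction against 0 and 102 between labelled sexes against 34; the cause was not tested. With the number in the titles as a replicate block they were 9 in labelled males and 1 for the interaction, and 0 members were called. The numbers share no stated animal, litter or day, 0 of 6 same-numbered pairs correlated above 0.1 in labelled males and 2 of 6 in labelled females, so they were not taken to pair the libraries. In 3 of 6 labelled female pairs and 0 of 6 labelled male pairs the saline library correlated best with its own number. Those pairs join different treatments. Between labelled males and females of the same treatment, 1 of 6 saline pairs and 0 of 6 oxytocin pairs correlated above 0.1. There the male library correlated best with its own number in 1 of 6 saline and 2 of 6 oxytocin pairs. Shared litters cannot be told from these values.

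Leaving out single libraries gave 0 to 106 genes in labelled males, 1 to 6 in labelled females, 9 to 334 on average and 29 to 60 between labelled sexes. The lowest and highest counts came, for labelled males, from leaving out any of 8 libraries of that sex (0) or saline female 2 (106), which also gave the 334; saline male 2 gave the 9, and saline female 6 gave the 6 and the 60. As a share of TPM the members took 18.8% and 18.9% in labelled males (saline and oxytocin) and 17.98% and 19.0% in labelled females. Against the reads of all other genes they stood at 9.59% and 9.53% in labelled males (saline and oxytocin) and 9.36% and 9.77% in labelled females. For the spread, the median SD ratio was 2.13 to 4.55 in labelled males when 1 library was left out, and the number of members at least 2 times wider in both labelled sexes was 3 to 9. With the TPM that number was 7, and the ratios were 3.49 and 2.13. Genes called for spread were 0 to 9 in labelled males, 16 to 92 in labelled females and 0 to 4 on average when 1 library was left out, 11 in labelled females with the TPM, and 0 in each labelled sex from medians. Without the highest and the lowest library of each saline group they were 13, 97 and 12, the male ratio was 1.28, and 6 members were wider in saline in both labelled sexes, 2 of them at least 2 times. Trimming all 4 groups alike gave 21, 125 and 21 genes, and 5 members at least 2 times wider. No member was called for spread under any of these. The test from medians recovered none of the changed genes on simulated data, so its lack of calls is not informative. With 6 libraries a group, the precision is set by the standard errors, which for mt-Nd2 reached 0.14 on the log2 scale within a labelled sex and 0.20 for the interaction.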

Other observations

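Dixon's test was applied to 44 sets of 6 libraries, 10 members in 4 groups and the summed share in 4 groups. In 0 sets did a library lie farther from the rest than the 95% limit, where chance alone gives about 1 in 20. The members move together, so these are not 44 separate observations. In the middle 4 libraries of each group, mt-Nd1, the member with the highest SD ratio in labelled males, stood between 7299 and 9302 CPM in saline males and between 8469 and 8709 CPM in oxytocin males. The highest-to-lowest ratio of the middle 4 libraries was larger in saline for 9 of 10 members in labelled males and for 10 of 10 in labelled females. The exception was mt-Co2 in labelled males: its middle libraries stood between 6045 and 7020 CPM in saline males and between 6216 and 7257 CPM in oxytocin males, ratios of 1.16 and 1.17.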
